A study of Mus musculus with 2 samples.

Results

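Transcripts of 39 genes that sense or repair DNA damage were followed in the tibia of telomerase-deficient and control mice. The genes were chosen by function, and every array probe annotated with 1 of their symbols was taken. Probes were found for 38 of the 39 genes, 83 probes among the 45281 of the array, and Xrcc2 was not analysed here. At least 1 probe lay above background on at least 1 array for 29 of the 38 genes.

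The telomerase-deficient animals were labelled TERC-/-, and the series title calls them G3-mTERC-/-. They lack Terc, the RNA template of telomerase. The controls were labelled TERC+/+. Both groups were untreated female C57BL/6 mice of 22 weeks. For each genotype, tibia RNA of 3 mice was mixed and hybridised to 1 Illumina bead array, on which each probe is an oligonucleotide carried on many beads. With 1 array per genotype no difference could be tested, no value has an error, and the spread between mice was not measured. Every value below describes these 2 pools.

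Cells answer broken or damaged DNA with sensor kinases that halt the cell cycle and with repair routes suited to the lesion. Recombination copies an intact sister chromatid, end joining ligates broken ends directly, the Fanconi pathway undoes crosslinks, and mismatch and excision repair replace wrong or damaged bases. Telomeres that have become too short are known to be sensed as broken ends. In marrow, recombination and mismatch genes are used mostly by dividing cells, and end joining also assembles the antigen receptor genes of lymphocytes.

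Raw intensities are linear and include background, and their median was 138 in Terc-/- and 127 in Terc+/+. Detection, set at a detection p under 0.01, began at a raw intensity of 169 in Terc-/- and 150 in Terc+/+, and was reached by 15363 probes in Terc-/- and 16640 in Terc+/+. The single Terc probe read 112 on both arrays and was not detected on either, which leaves the genotype unchecked by the data. Osteoblast markers were detected on both arrays for 6 of 6 genes, as were neutrophil markers for 12 of 12.

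Most repair genes differed little between the pools, and the departures were Xpc, higher in the Terc-/- pool, and Lig3, higher by 1 of its 2 detected probes. Differences are on the log2 scale of background-corrected, quantile-normalized intensity, Terc-/- minus Terc+/+, and a gene was called at 2-fold, a rule of size. Of 29 detected repair genes, 2 were called higher (background: 6.83% of all 9953 detected genes) and none was called lower (background: 8.8%). The 2 called genes make up 6.90% of the 29, which is close to the background share. The median difference was -0.12 over the repair genes and 0.01 over all detected genes, and 19 of 29 repair genes lay below 0, against 4891 of 9953 genes. The median size of the difference regardless of sign was 0.36 for the repair genes and 0.44 for all detected genes. At 1.5-fold, Xpc, Lig3 and Apex1 were higher (background: 16.9%) and Xrcc6, Blm and Msh6 lower (background: 17%), so 23 of 29 stayed within 1.5-fold.

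**Figure D1:**
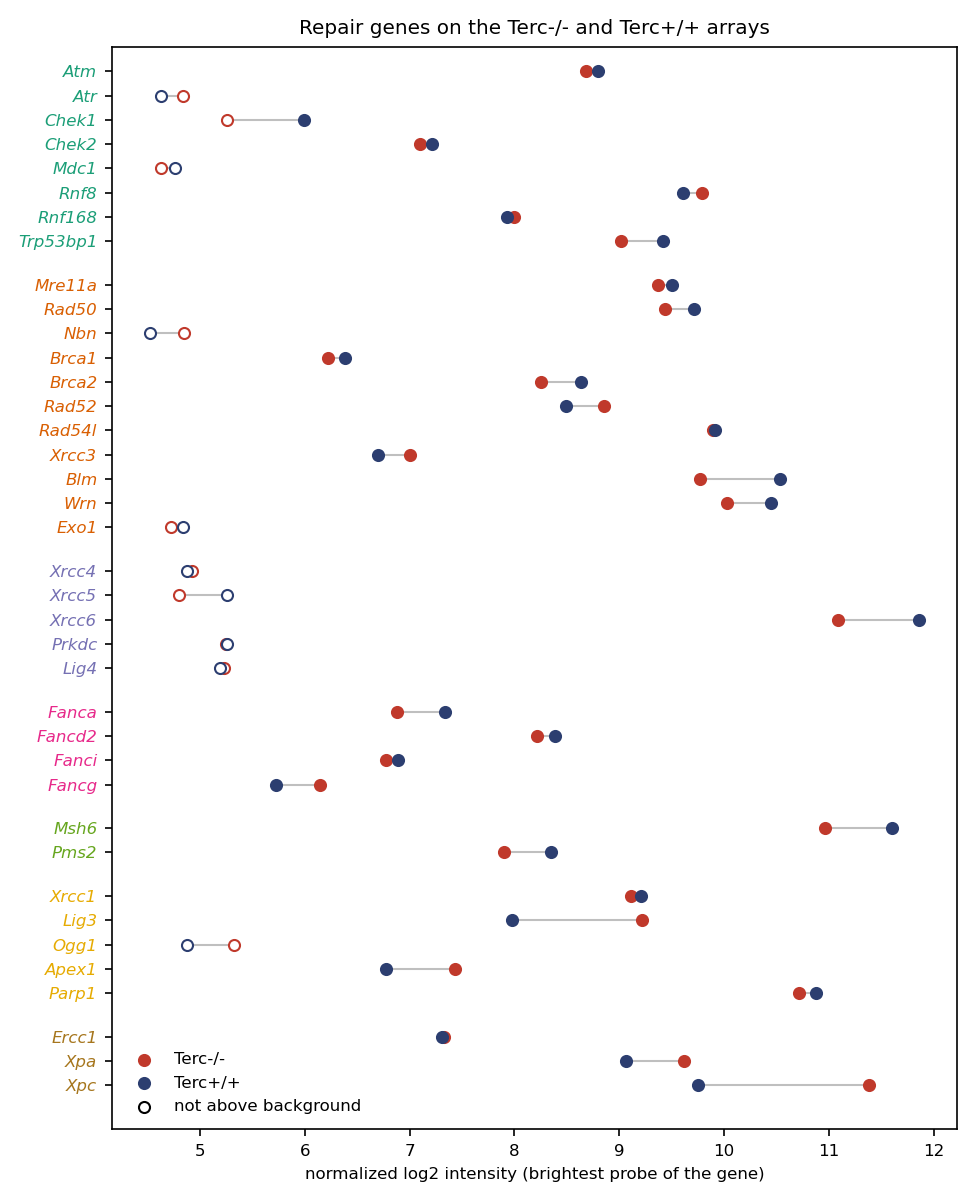
Normalized log2 intensity (x axis) of the brightest probe of each repair gene (rows, coloured by repair route) on the Terc-/- array (red) and the Terc+/+ array (blue). Open circles are values not above background; the widest gap is that of Xpc, at 11.38 in Terc-/- and 9.75 in Terc+/+.

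The promoters of the 3 genes that were 1.5-fold or more lower are shown because replication-linked genes often carry binding sequences of E2F, a family of transcription factors active at entry into S phase. They run from 250 bases before the annotated gene start to 50 after it, on the strand of the gene, and come from RefSeq on build GRCm38.p6. Capitals mark E2F-type words (TTTCGCGC, TTTGGCGC, TTTCCCGC or TTTGCCGC) and the CCAAT box, on either strand, and no 2 marked words overlap.
Xrcc6, chr15:82016119-82016418, plus strand: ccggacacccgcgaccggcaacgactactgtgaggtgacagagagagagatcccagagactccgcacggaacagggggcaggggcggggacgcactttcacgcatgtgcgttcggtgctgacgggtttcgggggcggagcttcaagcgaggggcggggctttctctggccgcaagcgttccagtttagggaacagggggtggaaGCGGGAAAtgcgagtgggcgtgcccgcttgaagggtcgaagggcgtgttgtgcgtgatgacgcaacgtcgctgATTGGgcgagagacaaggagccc
Msh6, chr17:87974800-87975099, plus strand: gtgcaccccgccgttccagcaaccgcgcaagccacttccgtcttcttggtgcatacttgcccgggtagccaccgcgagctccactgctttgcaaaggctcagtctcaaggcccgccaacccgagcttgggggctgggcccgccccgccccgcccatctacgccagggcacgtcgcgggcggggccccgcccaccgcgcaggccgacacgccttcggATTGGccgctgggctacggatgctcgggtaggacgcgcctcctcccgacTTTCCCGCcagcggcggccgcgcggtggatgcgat
Blm, chr7:80534949-80535248, minus strand: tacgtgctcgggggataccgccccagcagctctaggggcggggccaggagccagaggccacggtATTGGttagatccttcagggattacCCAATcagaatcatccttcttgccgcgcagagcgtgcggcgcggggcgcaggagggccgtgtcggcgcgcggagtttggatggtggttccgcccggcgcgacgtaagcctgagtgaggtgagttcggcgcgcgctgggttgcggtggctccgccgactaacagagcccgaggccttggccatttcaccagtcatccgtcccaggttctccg

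Xrcc6 held TTTCCCGC on the opposite strand, starting 46 bases before the gene start, and Msh6 held it 15 bases after the start. Blm held none of the E2F-type words and 2 CCAAT boxes. Promoter windows were found for 31 of the 38 repair genes (33 windows), and none was found for Xpc. Lig3 and Apex1, which were 1.5-fold or more higher, held none of the E2F-type words. An E2F-type word stood in 6 of the 33 windows (18.2%), against 2.26% of all 32851 windows of the same length. The CCAAT box stood in 19 of the 33 (57.6%), against 37.4% of all windows. The 19 count the same Rad54l box in 2 overlapping windows. The 6 genes with an E2F-type word were Xrcc6, Msh6, Brca2, Chek2, Fancg and Mdc1. Of these, Xrcc6, Msh6, Brca2 and Chek2 lay below 0 by their brightest probe, Fancg lay above 0 and Mdc1 was not detected. A second detected probe of Brca2 and of Chek2 lay above 0, and Fancg was dim. Whether the word goes with a direction was not tested. A match of letters is a description and not a binding site.

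Nucleotide excision repair, which cuts out bulky lesions, had all 3 of its genes detected and all 3 above 0. Xpc encodes the sensor that finds helix distortions and starts the repair. Its brighter probe read a raw intensity of 2906 in Terc-/- and 941 in Terc+/+, a normalized difference of 1.63, or 3.10-fold. The second Xpc probe read 198 in Terc-/- and 140 in Terc+/+, where it was not above background. After background correction it was at least 1.87-fold higher, and its log2 difference without correction was 0.44. Both Xpc probes thus pointed the same way, and among all detected genes the difference of the brighter one stood at the 98.3 percentile. In the authors' deposited normalized table the same probe stood at 2804 in Terc-/- and 967 in Terc+/+.

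Xpa, which verifies the lesion once it is found, read 910 in Terc-/- and 630 in Terc+/+, a difference of 0.56. Ercc1, a subunit of the nuclease that cuts on the 5′ side, read 268 in Terc-/- and 263 in Terc+/+, a difference of 0.02. The 3 genes of the route therefore spanned the range from no visible difference to the largest difference of all the repair genes. Of 12 further detected genes of the route, none was called, and their median was 0.20. The furthest from 0 were Ercc4, the catalytic partner of Ercc1, at 0.59 and Gtf2h3, a subunit of the repair and transcription factor TFIIH, at -0.58.

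Base excision and single-strand break repair gave mixed values. Lig3 encodes the ligase that seals single-strand nicks in the nucleus and is the DNA ligase of mitochondria. Its brightest probe read 707 in Terc-/- and 356 in Terc+/+, a difference of 1.23, or 2.35-fold. A second detected Lig3 probe read 328 in Terc-/- and 363 in Terc+/+, a difference of -0.23. The other 3 Lig3 probes were not above background on either array. The call of Lig3 thus rests on 1 of its 2 detected probes, and averaging those 2 gave 0.50, which is under 2-fold.

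**Figure D2:**
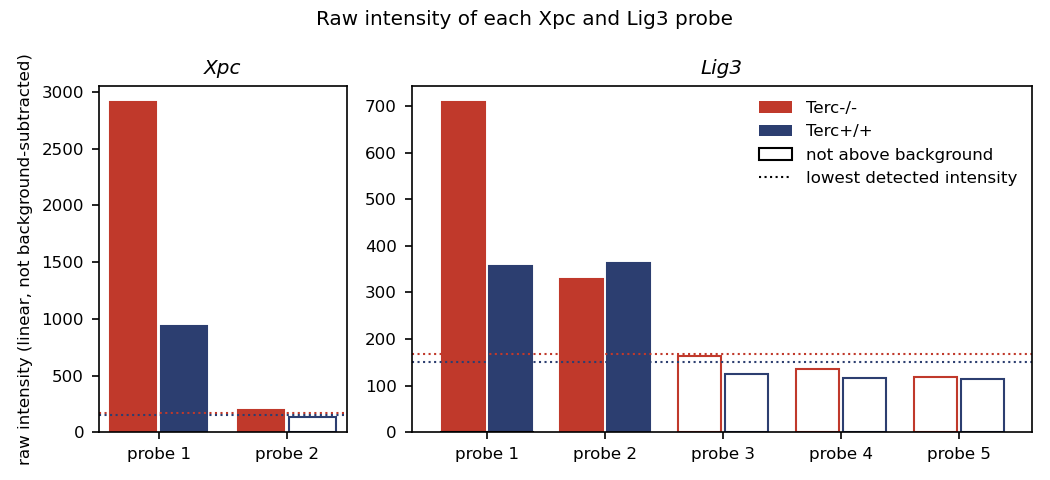
Raw intensity (y axis, linear, from 0) of each Xpc and Lig3 probe on the Terc-/- array (red) and the Terc+/+ array (blue). Open bars are not above background and dotted lines mark the lowest detected intensity of each array; the Xpc probes are both taller in Terc-/-, whereas Lig3 probes 1 and 2 go opposite ways.

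Apex1, the endonuclease that cuts at sites which have lost their base, read 282 in Terc-/- and 214 in Terc+/+, a difference of 0.66. Xrcc1, the scaffold that holds Lig3 at nicks, read 666 in Terc-/- and 690 in Terc+/+, a difference of -0.10. Parp1, which senses strand breaks and marks them with poly(ADP-ribose), read 1862 in Terc-/- and 1914 in Terc+/+, a difference of -0.17. Its second detected probe was at -0.18, so both Parp1 probes placed the pools close together. Ogg1, the glycosylase for oxidised guanine, was not detected by any of its 3 probes. Of 16 further detected genes of the route, 1 was called higher: Mutyh, the glycosylase that removes adenine opposite oxidised guanine. It read 207 in Terc-/- and 136 in Terc+/+, where it was not above background. After background correction it was at least 2.06-fold higher, which only just passes the 2-fold rule. The probe was dim, and this call was not checked without background correction. The median of those 16 genes was -0.09.

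Mismatch repair had both of its genes below 0. Msh6, part of the complex that recognises mispaired bases, read 2179 in Terc-/- and 3045 in Terc+/+, a difference of -0.64, or 1.56-fold lower. Its second probe read 1863 in Terc-/- and 2471 in Terc+/+, a difference of -0.56. Pms2, part of the nuclease complex that acts after recognition, read 348 in Terc-/- and 429 in Terc+/+, a difference of -0.44. None of the 3 probes reached 2-fold, and all 3 were lower in Terc-/-.

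End joining was mostly below the reach of the array. Only Xrcc6, which encodes the smaller Ku subunit that clasps broken ends, was detected. Its brightest probe read 2389 in Terc-/- and 3570 in Terc+/+, a difference of -0.76, or 1.70-fold lower. The second detected probe read 575 in Terc-/- and 792 in Terc+/+, a difference of -0.58. Xrcc6 had the most negative difference of the repair genes, and still stood at the 15.3 percentile of all detected genes. Xrcc5, the partner Ku subunit, Prkdc, the kinase that Ku recruits, and Lig4 and Xrcc4, which together ligate the ends, were not detected on either array. Of 4 further detected genes of the route, none was called, and the furthest from 0 were Aplf, an assembly factor, at -0.83 and Poll, a gap-filling polymerase, at 0.82.

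Recombination and end resection had 9 of 11 genes detected, 7 of them below 0, none called, and a median of -0.16. Blm, the helicase that dissolves crossed-over strands, read 1007 in Terc-/- and 1522 in Terc+/+, a difference of -0.76, or 1.69-fold lower. A second Blm probe read 1042 in Terc-/- and 1341 in Terc+/+, a difference of -0.49. Wrn, a related helicase that also acts at telomeres, read 1181 in Terc-/- and 1451 in Terc+/+, a difference of -0.43. The other 2 Blm probes and the second Wrn probe were not above background on either array.

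Brca2, which loads the strand-exchange protein, read 415 in Terc-/- and 500 in Terc+/+ on its brightest probe, a difference of -0.38. A second detected Brca2 probe was at 0.31, so the probes of this gene disagreed in direction. Brca1, which promotes resection and recombination, was dim, at 184 in Terc-/- and 188 in Terc+/+, a difference of -0.16. Rad54l, a motor protein of strand exchange, read 1088 in Terc-/- and 1038 in Terc+/+, a normalized difference of -0.02, and its second probe, above background in Terc+/+ only, gave no limit on the fold. Rad52, which anneals single strands, read 572 in Terc-/- and 463 in Terc+/+, a difference of 0.36, and Xrcc3, a helper of strand exchange, was at 0.31. Those 2 were the only recombination genes above 0.

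Of the complex that first binds and trims a break, Mre11a, the nuclease, read 775 in Terc-/- and 822 in Terc+/+, a difference of -0.14. A second Mre11a probe was at -0.04. The remaining probe, above background in Terc-/- only, was at least 1.47-fold higher after background correction, and stood at 0.24 without correction. The mean of the 3 probes of Mre11a was 0.17. Rad50, its tethering partner, read 807 in Terc-/- and 923 in Terc+/+, a difference of -0.28. Nbn, the third subunit, and Exo1, a resecting exonuclease, each had 3 probes and none was detected. Of 18 further detected recombination genes, none was called, and the median was 0.10. Rad51d, a paralogue of the strand-exchange protein, and Swi5, a recombination cofactor, were not above background in Terc+/+ and have only limits, at least 1.71-fold and at least 1.26-fold higher. Among those detected on both arrays, Top3a, a topoisomerase that works with Blm, was the furthest from 0, at 0.83.

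**Figure D3:**
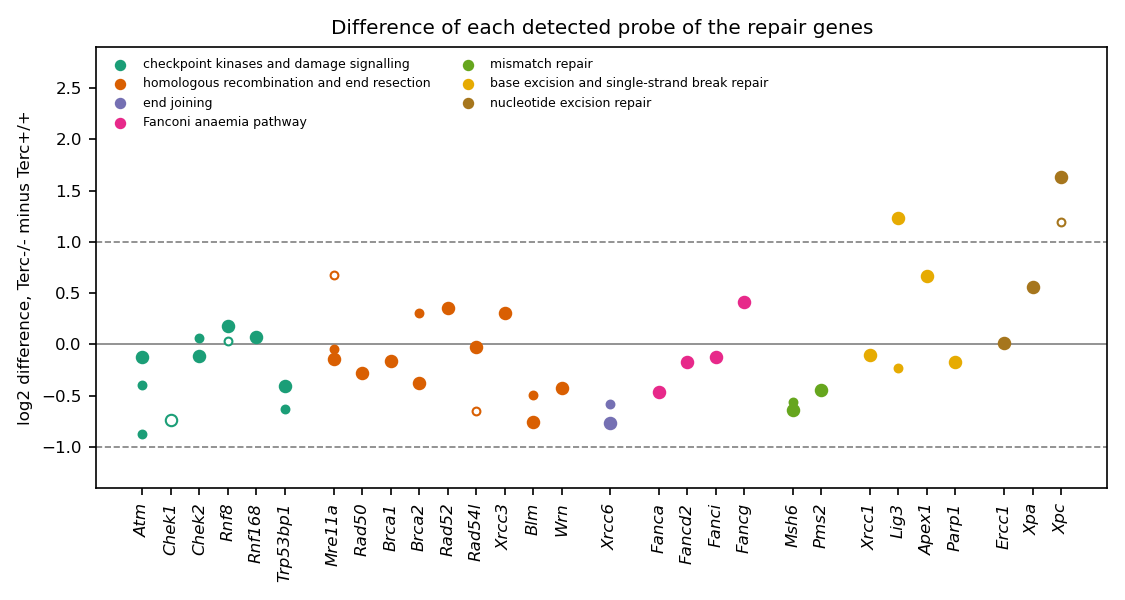
Log2 difference, Terc-/- minus Terc+/+ (y axis), of every detected probe of the 29 detected repair genes (x axis), coloured by repair route. Large points are the probe that stands for the gene, open points were above background on 1 array only, and dashed lines mark 2-fold; Xpc and Lig3 alone pass the upper line and no probe passes the lower one.

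Checkpoint kinases and damage signalling had 6 of 8 genes detected, none called, and a median of -0.12. Atm, the kinase that answers double-strand breaks, read 519 in Terc-/- and 548 in Terc+/+ on its brightest probe, a difference of -0.12. Its 2 other detected probes were at -0.87 and -0.39, so all 3 were below 0 but by unequal amounts. Atr, the kinase that answers single-stranded DNA, read 134 in Terc-/- and 113 in Terc+/+ and was not detected on either array. Chek2, which relays the Atm signal, read 245 in Terc-/- and 254 in Terc+/+, a difference of -0.11, and its second detected probe was at 0.06. Chek1, which relays the Atr signal, read 148 in Terc-/-, where it was not above background, and 167 in Terc+/+, and was at least 1.09-fold lower.

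Trp53bp1, a chromatin reader that favours end joining, read 632 in Terc-/- and 780 in Terc+/+, a difference of -0.40, with a second detected probe at -0.63. Rnf8 and Rnf168 are the ubiquitin ligases that mark chromatin around breaks. Rnf8 read 1016 in Terc-/- and 872 in Terc+/+, a difference of 0.18, and Rnf168 read 363 in Terc-/- and 347 in Terc+/+, a difference of 0.07. Mdc1, the adaptor that recruits Rnf8, was not detected. Of 17 further detected signalling genes, 1 was called higher: Rnf169, which competes with Trp53bp1 for marked chromatin. It read 1350 in Terc-/- and 698 in Terc+/+, a difference of 1.01, or 2.01-fold, which only just passes the 2-fold rule. Rif1, an effector of Trp53bp1, read 159 in Terc-/-, where its brightest probe was not above background, and 211 in Terc+/+. By this probe it was at least 1.80-fold lower after background correction and was not called, since that limit is under 2-fold. Another Rif1 probe was above background in Terc-/-, and its value is not given here.

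All 4 Fanconi genes were detected and none was called. Fanca and Fancg belong to the core complex that ubiquitinates Fancd2 and Fanci. Fanca read 226 in Terc-/- and 267 in Terc+/+, a difference of -0.46, and Fancg read 180 in Terc-/- and 156 in Terc+/+, a difference of 0.42. These core members were dim and lay on opposite sides of 0. Fancd2 read 407 in Terc-/- and 439 in Terc+/+, a difference of -0.17, its second probe was also at -0.17, and Fanci was at -0.12. Of 11 further detected Fanconi genes none was called, and the furthest from 0 were Ube2t, the conjugating enzyme of the pathway, at -0.59 and Faap24, a core-complex partner, at 0.56.

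The 9 genes not detected were Atr, Mdc1, Nbn, Exo1, Xrcc4, Xrcc5, Prkdc, Lig4 and Ogg1. Their 17 probes read between 115 and 152 in Terc-/- and between 99.3 and 139 in Terc+/+. No level or fold can be given for them, and a low value of an array probe does not show that the transcript was absent. The share of genes detected was 76.3% for the repair genes and 52.2% for all genes with a probe. Of the 11 repair genes with at least 2 probes detected on both arrays, the probes went the same way for 8 and opposite ways for Brca2, Chek2 and Lig3. That share, 72.7%, was close to the 73.8% of all 2870 such genes on the array.

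In each cell type list below, the median lay further from 0 than the -0.12 of the repair genes. The lists were chosen with earlier results of these data known, so they are no yardstick for the repair genes. The background was 6.83% of all detected genes called higher and 8.8% called lower. Of 9 detected erythroid markers, 9 were called lower in Terc-/- (median -2.53), and their summed level was 17903 in Terc-/- and 97998 in Terc+/+, and Epb42 was not detected. Of 7 detected B-lymphocyte markers, 5 were called lower (median -1.80), with a summed level of 1415 in Terc-/- and 6101 in Terc+/+, and Pax5 and Dntt were not detected. Of 5 T-lymphocyte markers, 5 were called lower (median -1.57), with a summed level of 533 in Terc-/- and 1439 in Terc+/+. Osteoblast markers were called lower for 6 of 6 (median -1.92), with a summed level of 7806 in Terc-/- and 48427 in Terc+/+. Skeletal muscle markers were called lower for 2 of 6, with all 6 below 0 (median -0.96), with a summed level of 26347 in Terc-/- and 63422 in Terc+/+. Neutrophil markers were called higher for 5 of 12 (median 0.90), with a summed level of 338531 in Terc-/- and 254883 in Terc+/+.

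None of 12 detected proliferation markers was called, their median was -0.16, and their summed level was 24578 in Terc-/- and 29905 in Terc+/+, with Bub1 not detected. Of the 12, 7 lay below 0 and 5 above, from -0.74 for Mcm2 to 0.48 for Mcm3, both subunits of the replicative helicase. The marker levels moved with the same comparison as the repair genes, and their part in the values of the repair genes was not tested. In whole tibia, fewer cells of a type and less RNA per cell cannot be told apart.

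**Figure D4:**
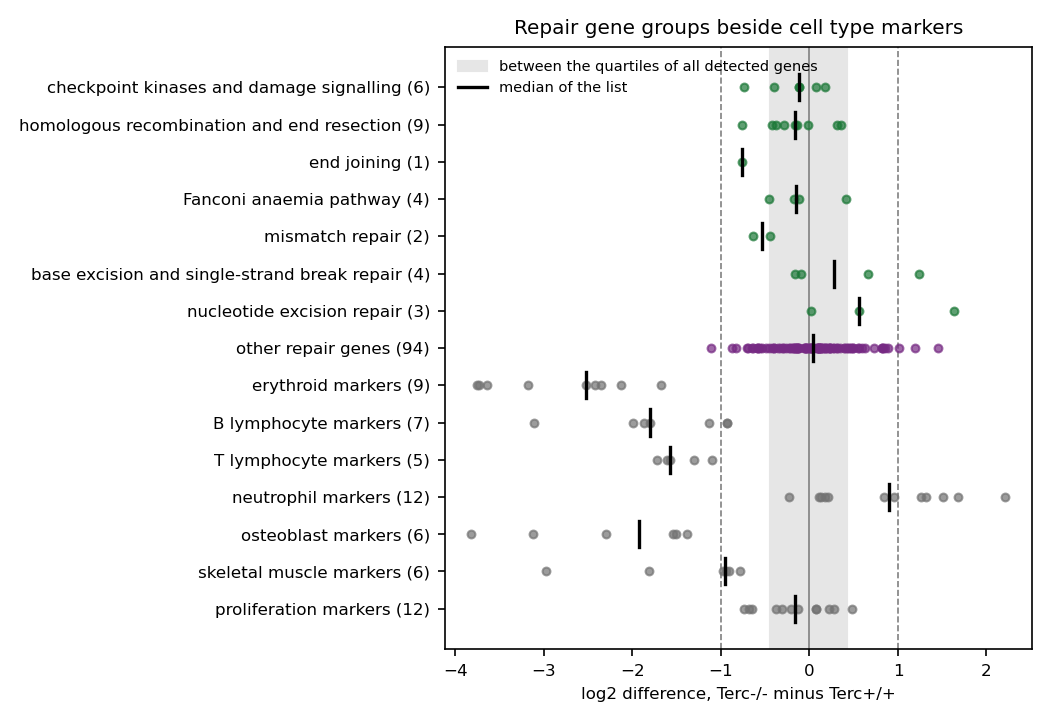
Log2 difference, Terc-/- minus Terc+/+ (x axis), of each detected gene (points) of the repair routes (green), the further repair genes (purple) and the marker lists (grey), with list medians as black bars and the number of genes in brackets. The grey band spans the quartiles of all detected genes, -0.45 to 0.42. The erythroid, lymphocyte, osteoblast and muscle medians lie left of it, as do those of mismatch repair (2 genes) and end joining (1 gene). The neutrophil and nucleotide excision repair medians lie right of it. Those of damage signalling, recombination, the Fanconi pathway, base excision repair, the further repair genes and the proliferation markers lie inside it.

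Over the wider list, 94 of 114 further repair genes were detected. Of these 2 were called higher, Rnf169 and Mutyh, and none was called lower, and the median was 0.04. Both called genes only just passed the 2-fold rule. The called shares were 2.13% higher and 0% lower, against 6.83% and 8.8% of all detected genes.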

How the data were processed

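The authors deposited, per the file headers, a table of non-normalized intensity with a detection p-value for each probe and array, and a second table of intensity whose normalization is not given in the sources used here. Per the labels' protocols, RNA was extracted with Trizol, column-cleaned, treated with DNase and amplified as biotinylated cRNA. The array software is not given in the sources used here. The lowest intensity of the first table was 88.7, so the deposited intensity was not background-subtracted.

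From the first table, background was corrected with the normexp model using the detection p-values (nec, limma 3.58.1, R 4.3.3, offset 16), and the log2 of quantile-normalized values was used. The offset shrinks the folds of dim probes, but background correction as a whole enlarged them. Fancg stood at 0.42 with correction and 0.15 without it, and Fanca at -0.46 and -0.26. Of 45281 probes, 34885 had 1 gene symbol in the platform annotation, 18 several and 10378 none, and only the first were used. A gene's brightest probe, by mean log2 over both arrays, stood for it. Genes detected (detection p under 0.01) on at least 1 array entered, and a gene was called at 2-fold. Where only 1 array put that probe above background, its fold is a lower limit ("at least"), taken to the lowest detected signal of the dim array or to the probe's own value there if higher, and calls use this limit. These limits hold on the background-corrected scale only. List medians use normalized values. Summed levels add linear normalized intensities.

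All 39 genes are accounted for in the text. Of the further repair genes, those called and otherwise the 2 furthest from 0 in each list are named, while Rif1, Top3a, Mcm2, Mcm3 and the markers not detected were chosen after their values were seen. The members and all lists were chosen with earlier results of these data known. The normalization was checked on simulated data made from the Terc+/+ array, with changes put into bright probes only. The choice of the brightest probe and the lower limits were not checked in this way. Of the further list 11 genes, and of the markers 8, are not analysed here. Figures used matplotlib 3.10.9.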

Additional observations from a re-analysis of the deposited data

How the results depend on the processing

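The values were recomputed from the deposited normalized table, with no background correction, with an offset of 50, with cyclic loess, with median scaling, with 3 other detection filters, with 2 ways of averaging probes, at 1.5-fold and 3-fold, and with normalized values in place of bounds. The count of repair genes called higher was 1, Xpc alone, with no background correction, with the deposited table, with the mean of all probes, with the mean of the detected probes and at 3-fold. Lig3 then stood at 0.96, 0.99, 0.38 and 0.50 in the first 4 of these. In the same order, with 3-fold last, the share of all genes called higher was 3.58%, 3.64%, 5.17%, 6.79% and 1.76%. At 1.5-fold, 3 genes were called higher (background: 16.9%) and 3 lower (background: 17%). In every other alternative 2 were higher (background: 4.15% to 7.89%) and none lower (background: 5.44% to 10.4%). Xpc ranged from 1.41 to 1.79. The 1.5-fold counts used the main processing, and several did not hold elsewhere. Apex1 stood at 0.37 with no background correction, and Xrcc6 and Msh6 at -0.56 and -0.46 with median scaling. Blm stood at -0.31 with the mean of all probes. Each of these values is under 1.5-fold. The median of the repair genes was -0.23 with cyclic loess, where the median of all genes was -0.07, and elsewhere lay between -0.12 and -0.06. The median of the further repair genes, 0.04, was -0.04 with cyclic loess. Of 29 detected genes, 23 kept their sign in every alternative, and Chek2, Rnf168, Mre11a, Brca2, Rad54l and Ercc1 did not. No paired analysis was possible because each genotype had 1 array. Having 1 array per genotype sets the precision, and probes near background, such as those of Brca1, Fancg and Chek1, give the least certain ones.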

Other observations

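Repair polymerases and the replication factors they share with DNA synthesis were also measured. All 7 detected genes of lesion bypass lay within 2-fold. Polh, the polymerase that copies past ultraviolet damage, read 236 in Terc-/- and 338 in Terc+/+, a log2 difference of -0.87. Rev1, the scaffold of the bypass polymerases, read 601 in Terc-/- and 375 in Terc+/+, a difference of 0.85. These were the furthest from 0 in each direction, and the median of the 7 was -0.04.

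Of 9 further detected mismatch repair genes, which include the clamp and clamp loader used in replication, none was called and 7 lay below 0, with a median of -0.17. Rfc3 and Rfc4, subunits of the clamp loader, were the furthest from 0 at -0.64 and -0.58. Rfc3 read 174 in Terc-/- and 206 in Terc+/+, and Rfc4 read 1150 in Terc-/- and 1554 in Terc+/+. Rfc3 was thus dim and close to the lowest detected intensity in Terc-/-, so its difference is less certain than that of Rfc4.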
